A study of Mus musculus with 36 samples.

Results

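The genes described here are the MHC class II genes of the mouse and Ciita, the gene of their shared coactivator. The 10 members are Ciita, Cd74, H2-Aa, H2-Ab1, H2-Eb1, H2-DMa, H2-DMb1, H2-DMb2, H2-Oa and H2-Ob. They were chosen by name, as the rows of these symbols among the 40354 genes of the count tables. No measured value entered this rule, but the choice was made with earlier results of these data known. All 10 were found in both count tables and both log2 tables, and all 10 were among the 17277 genes that passed the filter on low counts.

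RNA-seq followed the switch of B cells to macrophages (B cell to macrophage transdifferentiation, BMT) that the transcription factor C/EBPα induces. B cells from the bone marrow of C57BL/6J mice, whose age was not given in the sources used here, carried a retrovirus that encodes C/EBPα fused to the estrogen receptor hormone-binding domain (ER) and human CD4 as a reporter. The factor was wild-type (WT), R35A (arginine 35 exchanged for alanine) or R35K (arginine 35 exchanged for lysine). Estradiol, which moves the fused factor into the nucleus, was added for 0, 1, 3, 6, 18 or 120 hours (hours post induction, hpi), so the 0 hpi cells of each construct carried the virus but had not been induced. The hCD4+ cells grew on inactivated fibroblast feeders with IL-7, IL-3, FLT-3, mCSF-1 and mSCF. Every 2 days the medium was replaced by medium lacking IL-7, so at 120 hpi the time and the loss of IL-7 cannot be told apart. The 18 groups, 1 for each construct and timepoint, had 2 biological replicates each, which gave 36 libraries with 13044456 to 23131776 reads counted on genes. WT and R35A libraries share a count table and R35K libraries have their own, so that for R35K the construct and the table cannot be told apart.

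MHC class II molecules are surface proteins that show peptides from the endocytic pathway to CD4+ T cells. Their genes are switched on together in B cells, dendritic cells and activated macrophages by Ciita, which does not bind DNA itself but is held by the factors RFX, CREB and NF-Y on the X and Y boxes of their promoters. The α and β chains (H2-Aa with H2-Ab1, and H2-Eb1) assemble on the invariant chain Cd74, H2-DM exchanges the last piece of the invariant chain for a peptide, and H2-O restrains H2-DM, mainly in B cells. C57BL/6 mice do not express an H2-E α chain: its pseudogene H2-Ea-ps had 0 to 2 counts in every library.

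In mm10 (GENCODE vM21), 8 members lie within 224 kb of chromosome 17. From left to right these are H2-Oa (chr17:34092340-34095234), H2-DMa (chr17:34119541-34139101), H2-DMb2 (chr17:34143307-34151555), H2-DMb1 (chr17:34153072-34160230), H2-Ob (chr17:34238903-34254414), H2-Ab1 (chr17:34257689-34269419), H2-Aa (chr17:34282744-34287823) and H2-Eb1 (chr17:34305867-34316674). H2-Aa is on the minus strand and the other members are on the plus strand. Ciita lies on chromosome 16 (chr16:10480059-10528418), and Cd74 on neither of these. Some stretches of the members also occur in other genes, so their counts can be too low or too high. Of the 50-base stretches of their exons, 22.7% of those of H2-DMb1 and 25.9% of those of H2-DMb2 occur in another gene. Most of these lie in the other gene of this pair, so the level of each and the split between both are less certain. The share was 15.5% for H2-Oa, all in the antisense gene BC051537 with 0 to 2 counts, and 8.43% for H2-DMa, all in Brd2 on the other strand with 3898 to 13700 counts. It was 1.46% for Ciita, all in Dexi on the other strand with 78 to 228 counts, and at most 0.514% for the remaining members. The libraries were stranded, but the strand used in counting was not given in the sources used here.

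The letters of the X and Y boxes were searched in RefSeq promoters (GRCm38.p6, 250 bases before to 50 after each start, both strands) because Ciita acts through these boxes. Below are the 60-base windows of the members that hold a Y box (ATTGG) together with an X box (AGNAAC, any 3 letters, then TG) upstream of it. For comparison, 3 members follow that hold the Y box without an exact match to these X box letters. Such a miss does not show that an X box is absent. H2-DMa also holds a Y box at 1 of its starts, without an exact X box match. Its window is not printed, because only Y boxes on the strand of the gene and at a set distance before the start are shown. Each window is written 5′ to 3′ on the strand of the gene with the boxes in capitals.
H2-Eb1 (chr17:34305763-34305822, plus strand): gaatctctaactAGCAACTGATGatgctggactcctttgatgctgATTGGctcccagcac
H2-Ob (chr17:34238803-34238862, plus strand): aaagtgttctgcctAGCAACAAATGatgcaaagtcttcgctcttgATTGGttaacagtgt
H2-DMb1 (chr17:34153085-34153144, plus strand): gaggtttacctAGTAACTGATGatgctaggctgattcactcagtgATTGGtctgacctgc
H2-DMb2 (chr17:34145114-34145173, plus strand): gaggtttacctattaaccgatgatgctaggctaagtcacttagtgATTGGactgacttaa
H2-Aa (chr17:34287857-34287916, minus strand): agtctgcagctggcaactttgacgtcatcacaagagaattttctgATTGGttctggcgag
H2-Oa (chr17:34092291-34092350, plus strand): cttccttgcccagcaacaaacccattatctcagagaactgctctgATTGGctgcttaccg

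An X box followed on its own strand by a Y box, with 10 to 30 letters between them, stood in 25 of 32851 promoters (0.0761%). Of these 25, 4 belong to class II genes, the 3 members H2-Eb1, H2-Ob and H2-DMb1 and the class II gene H2-Eb2, with 20 to 23 letters between the boxes. Counted with or without the other box, the X box stood in 4.18% and the Y box in 37.4% of all promoters. With the longer Y box GATTGG, which 16.1% of promoters hold, 12 promoters (0.0365%) kept the pair. H2-DMb1 and H2-DMb2 are the closest pair: 51 of the 60 letters of their windows are identical and 2 of the 9 differences, G13T and T18C (the H2-DMb1 letter first, positions counted from 1 at the 5′ end of the window), fall in the X box of H2-DMb1. Of these 2, only G13T changes a fixed letter of the X box searched, while T18C falls where any letter matches. A C/EBP site (TTGCNNAA, 10.8% of all promoters) was in no promoter of the 7 members searched, and a PU.1 site (GAGGAA, 28.3%) was in that of H2-DMb1 alone. These are matches of letters in 1 window per start, and binding was not measured here. Ciita and H2-Ab1 were not in the promoter table and the promoter of Cd74 was not searched, so these letters were looked for in 7 members.

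In uninduced WT cells the members differed widely in level. Given as CPM (the usual counts scaled to library size, with library sizes adjusted by TMM, a normalization between libraries) per kilobase of exon, the mean of the 2 replicates was highest for Cd74 (153 ± 9.35, SD, n = 2). The chains H2-Ab1 (28.0 ± 0.675), H2-Eb1 (22.2 ± 1.21) and H2-Aa (16.4 ± 0.322) and the DO β chain H2-Ob (11.6 ± 0.368) followed. H2-DMa (5.31 ± 0.701), H2-DMb2 (4.84 ± 0.300), H2-DMb1 (3.59 ± 0.168), Ciita (2.0 ± 0.221) and H2-Oa (1.57 ± 0.218) were the lowest. At 120 hpi the order in WT cells was another one: Cd74 stood at 499 ± 28.6, H2-DMa at 70.4 ± 2.41 and H2-DMb1 at 34.0 ± 0.0893 CPM per kilobase, all above the classical chains at 5.68 to 10.4, while Ciita was last at 0.203 ± 0.0248. The reads of all 10 members made up 0.0594% ± 0.0019 of the counted reads in WT cells at 0 hpi, 0.0106% ± 0.00020 at 18 hpi and 0.0974% ± 0.0045 at 120 hpi.

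**Figure D1:**
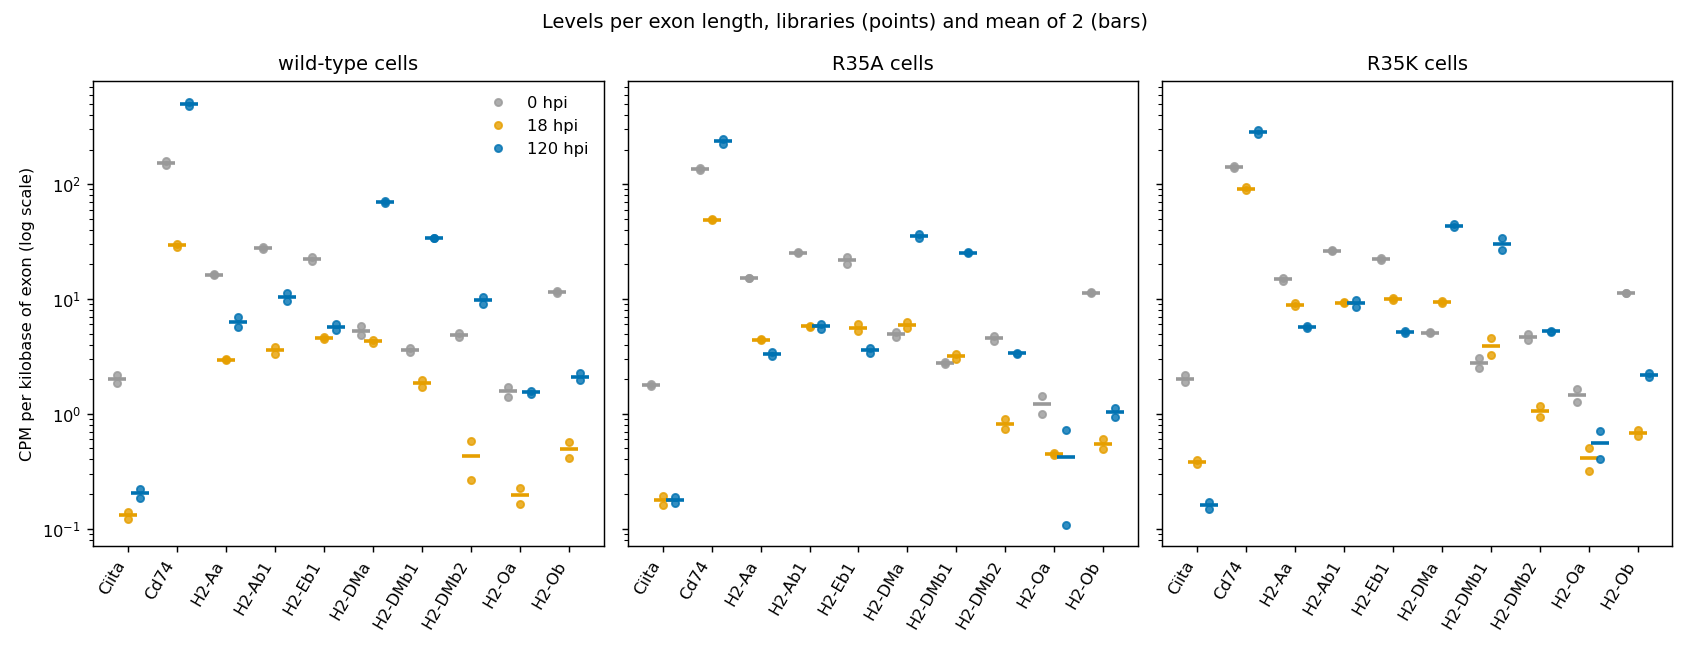
Level of the 10 members at 0, 18 and 120 hpi in the 3 constructs, in CPM per kilobase of exon on a log axis; points are libraries and bars are means of 2 replicates. Cd74 is the highest member throughout, and at 120 hpi H2-DMa and H2-DMb1 stand above the classical chains.

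A change was called where it was at least 1.5-fold in either direction and its p, adjusted by Benjamini-Hochberg over all genes tested, was 0.05 or lower (edgeR's quasi-likelihood test, 1 fit of the 36 libraries). The members moved down first and split at the end. In WT cells 5 of 10 members had fallen by 1 hpi, where 9.72% of all genes tested fell, and 9 of 10 had fallen by 3, 6 and 18 hpi, where 11.3%, 14.2% and 23.0% of all genes fell. From 0 to 120 hpi 4 members rose (25.2% of all genes did) and 5 fell (36.5%). The median log2 change of the members was -0.61, -1.05, -1.50, -2.72 and -0.69 at the successive timepoints, beside a median over all genes of -0.04 at 1 hpi, of 0.02 at 18 hpi and finally of -0.23. With DESeq2's size factors in place of TMM the median over all genes was 0.15 at 18 hpi. At 18 hpi 0 members rose, where 23.7% of all genes did. Both directions together held 19.7%, 23.2%, 29.6%, 46.7% and 61.8% of all genes at the successive timepoints. In bulk samples, fewer cells that express a gene and less RNA of it per cell cannot be told apart. Markers of other cells moved over the same hours. The summed level of 7 pre-B cell markers (Pax5 and others) went from 3069 to 3125 CPM at 0 hpi to 293 to 298 CPM at 18 hpi and 132 to 137 CPM at 120 hpi, all 7 having fallen. The sum of 10 macrophage markers went from 65.8 to 66.3 CPM to 790.1 to 791 CPM and 18401 to 18757 CPM, all 10 having risen. The sum of 7 feeder fibroblast markers was 915 to 932 CPM at 0 hpi, 2385 to 2446 CPM at 18 hpi, where 6 of 7 had risen, and 125 to 148 CPM at 120 hpi, where all 7 had fallen. These sums had moved within the first hour already. At 1 hpi they were 1406 CPM for pre-B cell, 820 to 829 CPM for macrophage and 2002 to 2007 CPM for feeder fibroblast markers in WT cells. Of 9 dendritic cell markers, 6 could be tested and 4 of these rose to 120 hpi. The sum of the list was 17.9 to 19.2 CPM at 0 hpi and 199 to 205 CPM at 120 hpi, nearly all of it Itgax, which macrophages express too. The part of these cells in the changes of the members was not tested. Of the other lists, mature B cell markers went from 57.0 to 57.6 CPM at 0 hpi to 0.265 to 0.382 CPM at 120 hpi in WT cells (all 3 tested of 4 fell). Granulocyte markers were at 31.7 to 40.2 CPM in the 0 hpi libraries and lower later (all 4 tested of 5 fell), in WT cells at 1.64 to 1.66 CPM already at 1 hpi. T cell markers summed to at most 0.307 CPM in any library.

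**Figure D2:**
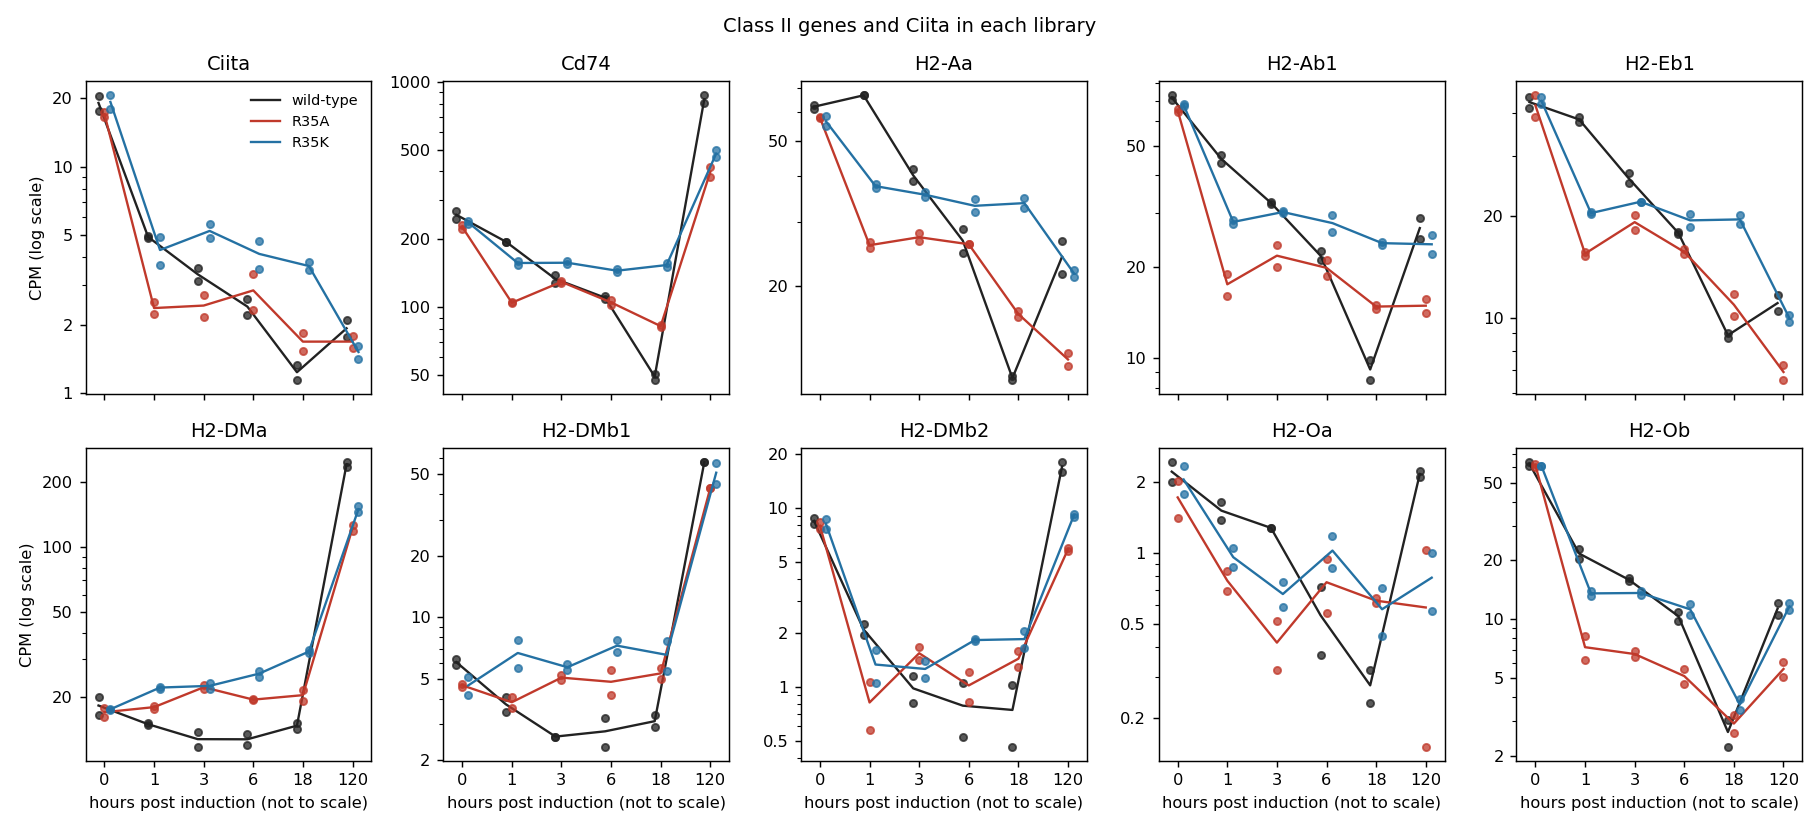
CPM of each member (log axis) against hpi for WT, R35A and R35K cells; points are the libraries and lines join the means of 2 replicates. Ciita drops within the first hour and stays low, whereas Cd74, H2-DMa and H2-DMb1 end above their 0 hpi level in all 3 constructs.

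Most of the fall in the level of Ciita came within the first hour, in which the marker sums of other cells moved too. In WT cells it stood at 20.6 and 17.6 CPM at 0 hpi, 4.86 and 4.93 at 1 hpi, 3.57 and 3.13 at 3 hpi, 2.62 and 2.21 at 6 hpi, 1.15 and 1.33 at 18 hpi and 1.77 and 2.10 at 120 hpi. No 2 timepoints overlapped, and the lowest were those of 18 hpi. The level was 3.90-fold lower at 1 hpi (log2 change -1.96 ± 0.13, SE, adjusted p = 2.93e-19), 15.3-fold lower at 18 hpi (-3.93 ± 0.17, adjusted p = 1.61e-27) and 9.86-fold lower at 120 hpi (-3.30 ± 0.18, adjusted p = 7.59e-24). The step from 18 to 120 hpi was 0.63 ± 0.31 on the log2 scale and did not pass the test (adjusted p = 0.061). In R35A cells the values were 16.6 and 17.5 CPM at 0 hpi, 2.23 and 2.53 at 1 hpi, 2.70 and 2.18 at 3 hpi, 3.37 and 2.32 at 6 hpi, 1.54 and 1.84 at 18 hpi and 1.79 and 1.59 at 120 hpi. Those of 1, 3 and 6 hpi overlapped, and so did those of 18 and 120 hpi below them, so that 14% of the starting level was left after 1 hour, where WT cells kept 25.7%. In R35K cells Ciita stood at 17.9 and 20.6 CPM at 0 hpi, 3.67 and 4.90 at 1 hpi, 5.56 and 4.84 at 3 hpi, 4.71 and 3.54 at 6 hpi, 3.78 and 3.51 at 18 hpi and 1.42 and 1.62 at 120 hpi. From 1 to 18 hpi it remained at 18.9% to 27.0% of its start, and it reached its lowest values, 2.39-fold under those of 18 hpi, at 120 hpi (-1.26 ± 0.25, adjusted p = 1.55e-05).

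The classical chains, which form the peptide groove, fell later than Ciita in WT cells. H2-Aa, an α chain, had 61.2 and 63.0 CPM at 0 hpi, 66.7 in both replicates at 1 hpi, 38.8 and 41.8 at 3 hpi, 24.6 and 28.7 at 6 hpi, 11.1 and 11.3 at 18 hpi and 26.6 and 21.6 at 120 hpi. H2-Ab1, its β partner, had 70.7 and 73.1 CPM at 0 hpi, 44.0 and 46.4 at 1 hpi, 32.3 and 32.6 at 3 hpi, 21.0 and 22.5 at 6 hpi, 9.89 and 8.51 at 18 hpi and 28.9 and 24.7 at 120 hpi. H2-Eb1, the H2-E β chain, had 41.5 and 44.8 CPM at 0 hpi, 37.7 and 39.0 at 1 hpi, 24.9 and 26.6 at 3 hpi, 17.9 and 17.6 at 6 hpi, 8.74 and 9.03 at 18 hpi and 10.4 and 11.7 at 120 hpi. The 3 chains thus stood between 62.8% and 107% of their start at 1 hpi and between 12.8% and 20.6% at 18 hpi, their lowest level. At 1 hpi only H2-Ab1 of the 3 had fallen (-0.67, adjusted p = 7.47e-13), whereas H2-Aa was at 0.10 and H2-Eb1 at -0.17 on the log2 scale. At 18 hpi H2-Ab1 was 7.84-fold lower (-2.97 ± 0.09, adjusted p = 7.79e-36), H2-Aa 5.53-fold lower (-2.47 ± 0.08, adjusted p = 3.57e-34) and H2-Eb1 4.85-fold lower (-2.28 ± 0.09, adjusted p = 2.22e-30). From 18 to 120 hpi H2-Aa rose 2.15-fold (1.11 ± 0.10, adjusted p = 1.96e-15) and H2-Ab1 2.93-fold (1.55 ± 0.11, adjusted p = 1.81e-19), while H2-Eb1 changed by 0.31 ± 0.12, below the fold threshold. All 3 remained below their start at 120 hpi, H2-Aa 2.57-fold, H2-Ab1 2.68-fold and H2-Eb1 3.91-fold. The call on H2-Aa at 3 hpi (-0.62) was near the threshold and was lost without WT 3 hpi replicate 1 (-0.57).

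In R35A cells all 3 chains had fallen by 1 hpi. H2-Aa had 57.8 and 58.0 CPM at 0 hpi and 26.4 and 25.4 at 1 hpi (2.23-fold lower), H2-Ab1 64.2 and 66.0 and then 19.0 and 16.1 (3.71-fold lower), and H2-Eb1 39.1 and 45.2 and then 15.2 and 15.7 (2.74-fold lower). They kept 30.5% to 47.1% of their start at 3 and 6 hpi and 22.7% to 29.0% at 18 hpi. At 120 hpi H2-Aa had 12.1 and 13.1 CPM, H2-Ab1 15.7 and 14.1 and H2-Eb1 6.57 and 7.28, which is 16.4% to 22.9% of the start. The rise from 18 to 120 hpi that H2-Aa and H2-Ab1 passed in WT cells was not called in R35A cells (-0.41 and 0.01 on the log2 scale), and H2-Eb1 fell further (-0.66 ± 0.12, adjusted p = 3.21e-06), a call that was lost without R35A 18 hpi replicate 2 (-0.54). In R35K cells the chains kept 35.2% to 66.4% of their start from 1 to 18 hpi. H2-Aa, for example, had 54.9 and 58.4 CPM at 0 hpi, 37.2 and 38.1 at 1 hpi, 35.1 and 36.2 at 3 hpi, 34.6 and 31.9 at 6 hpi, 34.8 and 32.8 at 18 hpi and 22.2 and 21.2 at 120 hpi. Its first step passed the fold threshold narrowly (-0.59 at 1 hpi) and was lost without R35K 0 hpi replicate 2 (-0.54), without R35K 1 hpi replicate 1 (-0.57), and with DESeq2's size factors, with its Wald test and with the groups of the contrast alone (-0.58 in each). At 120 hpi the 3 chains were at 22.9% to 38.3% of their start in R35K cells.

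Cd74, the invariant chain, fell with the classical chains and then rose above its start. In WT cells it had 246 and 268 CPM at 0 hpi, 195 in both replicates at 1 hpi, 128 and 139 at 3 hpi, 112 and 109 at 6 hpi, 50.8 and 47.6 at 18 hpi and 872 and 804 at 120 hpi. No timepoints overlapped. It was 5.23-fold lower at 18 hpi (-2.39 ± 0.05, adjusted p = 5.74e-42) and 3.26-fold higher at 120 hpi than at 0 hpi (1.70 ± 0.04, adjusted p = 5.74e-39), and the last step was a 17.0-fold rise (4.09 ± 0.05, adjusted p = 3.47e-54). In R35A cells it had 222 and 232 CPM at 0 hpi, 104 and 105 at 1 hpi, 128 and 131 at 3 hpi, 103 and 107 at 6 hpi, 83.3 and 81.5 at 18 hpi and 419 and 377 at 120 hpi. In R35K cells it had 235 and 241 CPM at 0 hpi, lay between 143 and 160 CPM in every library from 1 to 18 hpi, and reached 497 and 464 at 120 hpi. The rise from 0 to 120 hpi was 1.75-fold in R35A cells (0.81 ± 0.04, adjusted p = 1.21e-23) and 2.02-fold in R35K cells (1.01 ± 0.04). The falls in R35K cells at 1 hpi (-0.60) and 3 hpi (-0.60) were just past 1.5-fold and were each lost without 1 library (R35K 0 hpi replicate 2, or replicate 2 of the later timepoint), with values of -0.57 to -0.58, and that at 3 hpi was lost with DESeq2's size factors and its Wald test as well (-0.58 in both).

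The genes of H2-DM, the peptide exchange factor, did not follow 1 pattern. H2-DMa, the α chain, had 16.6 and 20.0 CPM at 0 hpi in WT cells, lay between 11.8 and 15.2 CPM in every library from 1 to 18 hpi, and reached 249 and 237 CPM at 120 hpi. None of its changes up to 18 hpi was called in WT cells (-0.29 to -0.52 on the log2 scale), though those at 3 and 6 hpi passed 1.5-fold when single libraries were left out (-0.60 to -0.65 without WT 0 hpi replicate 1, WT 3 hpi replicate 2 or WT 6 hpi replicate 2). It was 13.3-fold higher at 120 than at 0 hpi (3.73 ± 0.06, adjusted p = 2.37e-47), 7.22-fold in R35A cells (2.85) and 8.53-fold in R35K cells (3.09). In R35A cells the libraries had 17.8 and 16.2 CPM at 0 hpi and 127 and 118 at 120 hpi, and in R35K cells 17.5 and 17.7 at 0 hpi, 33.3 and 32.0 at 18 hpi and 155 and 145 at 120 hpi. H2-DMa was the one member called higher at 18 hpi than at 0 hpi, in R35K cells (0.89, 1.86-fold). Brd2, which overlaps H2-DMa on the other strand, fell by 0.75 on the log2 scale from 0 to 120 hpi in WT cells.

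H2-DMb1 and H2-DMb2 both encode a DM β chain, and they moved apart. H2-DMb1 had 6.24 and 5.84 CPM at 0 hpi in WT cells, 4.07 and 3.44 at 1 hpi, 2.61 in both at 3 hpi, 3.21 and 2.33 at 6 hpi, 3.32 and 2.89 at 18 hpi and 57.1 and 57.3 at 120 hpi. H2-DMb2 had 8.09 and 8.83 CPM at 0 hpi, 2.23 and 1.95 at 1 hpi, 1.15 and 0.812 at 3 hpi, 0.524 and 1.04 at 6 hpi, 1.02 and 0.463 at 18 hpi and 18.0 and 16.0 at 120 hpi. H2-DMb2 was 4.05-fold lower at 1 hpi (-2.02 ± 0.19) and 11.5-fold lower at 18 hpi (-3.52 ± 0.24), while H2-DMb1 was 1.62-fold lower at 1 hpi (-0.69 ± 0.19) and 1.95-fold lower at 18 hpi (-0.96 ± 0.20, adjusted p = 2.39e-05). At 120 hpi H2-DMb1 was 9.46-fold (3.24 ± 0.12, adjusted p = 2.84e-32) and H2-DMb2 2.01-fold above its start (1.01 ± 0.13, adjusted p = 1.35e-09). The call on H2-DMb1 at 1 hpi was lost without WT 1 hpi replicate 2 (-0.56, adjusted p = 0.0504). Of the summed level of both genes per kilobase of exon, H2-DMb1 made up 42.6% ± 2.66 at 0 hpi in WT cells, 65.1% ± 0.527 at 1 hpi and 77.8% ± 1.54 at 120 hpi. The share was 37.8% ± 0.887, 83.4% ± 4.79 and 88.3% ± 0.279 in R35A cells and 37.1% ± 1.33, 83.4% ± 7.09 and 85.2% ± 1.79 in R35K cells. In all 3 constructs the share of H2-DMb1 was at most 44.5% in every library at 0 hpi and at least 64.7% in every later library. In the mutants H2-DMb1 rose as well, 9.15-fold in R35A cells (4.56 and 4.74 CPM at 0 hpi, 42.7 and 42.8 at 120 hpi) and 11-fold in R35K cells (4.18 and 5.11, then 56.9 and 44.8). H2-DMb2 changed by -0.44 in R35A cells (7.58 and 8.30 CPM, then 5.97 and 5.76) and by 0.16 in R35K cells (7.66 and 8.64, then 9.27 and 8.94), neither of which was called.

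H2-Ob and H2-Oa, the chains of the DM inhibitor H2-O, differed in level and course. H2-Ob fell furthest of all members by 18 hpi in WT cells. It had 63.8 and 61.0 CPM at 0 hpi, 20.4 and 23.0 at 1 hpi, 15.7 and 16.2 at 3 hpi, 10.9 and 9.83 at 6 hpi, 2.23 and 3.07 at 18 hpi and 10.5 and 12.1 at 120 hpi. This is a 2.87-fold lower level at 1 hpi (-1.52 ± 0.07, adjusted p = 5.48e-25), 23.3-fold at 18 hpi (-4.54 ± 0.11, adjusted p = 1.39e-39) and 5.52-fold at 120 hpi (-2.46 ± 0.09, adjusted p = 2.86e-31). In R35A cells it had 60.3 and 62.2 CPM at 0 hpi, 8.20 and 6.2 at 1 hpi, 2.63 and 3.22 at 18 hpi and 6.06 and 5.08 at 120 hpi, and in R35K cells 61.1 and 60.9, 13.2 and 14, 3.43 and 3.89, and 11.2 and 12.1. At 1 hpi the 3 constructs stood apart, WT highest and R35A lowest, whereas at 18 hpi WT and R35A overlapped and R35K lay just above both.

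H2-Oa, the O α chain, had few reads and its calls were the least firm. In WT cells it had 1.99 and 2.42 CPM at 0 hpi, 1.64 and 1.38 at 1 hpi, 1.27 and 1.28 at 3 hpi, 0.720 and 0.369 at 6 hpi, 0.319 and 0.232 at 18 hpi and 2.21 and 2.10 at 120 hpi. It was 7.86-fold lower at 18 hpi (-2.97 ± 0.44), and at 120 hpi its values overlapped those of 0 hpi (-0.03 ± 0.30, adjusted p = 0.936). It fell from 0 to 120 hpi in R35K cells (-1.38 ± 0.37), from 2.32 and 1.77 to 1.00 and 0.569 CPM. In R35A cells it went from 1.41 and 2.02 CPM to 1.02 and 0.152 (12 and 2 counts), a change of -1.62 ± 0.41 that was called with both replicates and lost without R35A 120 hpi replicate 2 (-0.84, adjusted p = 0.0684). Its falls at 3 hpi in WT cells (-0.78), at 1 and 6 hpi in R35A cells (-1.19 and -1.25) and at 1 and 6 hpi in R35K cells (-1.1 and -0.99) were each lost without single libraries, with values of -0.64 to -0.94. The libraries were WT 0 hpi replicate 2, either WT 3 hpi replicate, R35A 0 hpi replicate 2, R35A 6 hpi replicate 2, R35K 0 hpi replicate 1 and R35K 6 hpi replicate 1.

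Counted in the same way, 8 of 10 members fell from 0 hpi in R35A cells at each of 1, 3, 6 and 18 hpi (18%, 18.0%, 18.5% and 21.0% of all genes tested did), and 3 rose (26.5% of all genes) and 6 fell (35.3%) to 120 hpi. None rose at 3 or 18 hpi, where 18.7% and 21.5% of all genes did, and both directions together held 36.7% of all genes at 3 hpi, 42.4% at 18 hpi and finally 61.8%. In R35K cells 8 fell at each of 1, 3, 6 and 18 hpi (15.4%, 15.1%, 15.6% and 19.2% of all genes), 1 rose at 6 and 1 at 18 hpi (17.6% and 19.3%, beside 33.2% and 38.5% called in either direction), and 3 rose (26.7%) and 6 fell (35.5%) to 120 hpi. The one called at 6 hpi was H2-DMb1 (0.65), and it was lost without R35K 0 hpi replicate 1 (0.50) or R35K 6 hpi replicate 1 (0.56). The members' median log2 change at 120 hpi was -1.88 in R35A cells and -1.38 in R35K cells, beside -0.18 and -0.20 over all genes. Between successive timepoints, 2, 3 and 6 members fell in WT cells from 1 to 3, 3 to 6 and 6 to 18 hpi, where 0.596% (0.388% rose, 0.984% in either direction), 0.492% and 10.4% of all genes fell and 3.03% rose in the last interval (8.97% and 4.81% with DESeq2's size factors). The early ones were H2-Aa (-0.73) and H2-DMb2 (-1.09) from 1 to 3 hpi and H2-Oa (-1.23), H2-Ob (-0.62) and H2-Aa (-0.59) from 3 to 6 hpi. H2-DMb2 was lost without WT 1 hpi replicate 1 (-1.0) or WT 3 hpi replicate 2 (-0.86), H2-Ob without WT 6 hpi replicate 2 (-0.55), H2-Aa from 3 to 6 hpi without WT 3 hpi replicate 2 (-0.54) or WT 6 hpi replicate 1 (-0.50), and H2-Oa without either WT 3 hpi replicate (-1.23) or WT 6 hpi replicate 2 (-0.82). From 6 to 18 hpi Ciita (-0.95) was lost without WT 6 hpi replicate 1 (-0.79, adjusted p = 0.0595). From 18 to 120 hpi 8 members rose in WT cells (30.4% of all genes), 5 in R35A cells (27.1%) and 5 in R35K cells (25.6%), and 1 fell in R35A cells (26.6%) and 3 in R35K cells (27.1%). In R35A and R35K cells 0 members were called from 1 to 3 and from 3 to 6 hpi, where at most 1.22% of all genes were called, both directions together (at most 0.805% higher and 0.411% lower). DESeq2's Wald test called 0 of those it gave an adjusted p, and an unadjusted p called 1, H2-DMb2 in R35A cells from 1 to 3 hpi (0.90). From 6 to 18 hpi 3 members fell in R35A cells (2.69% of all genes), H2-Ob (-0.78), Ciita (-0.71) and H2-Aa (-0.64), and 1 in R35K cells (4.40%), H2-Ob (-1.62 ± 0.14). The call on Ciita was lost without R35A 6 hpi replicate 1 (-0.44) and without either R35A 18 hpi replicate (-0.59 and -0.85).

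**Figure D3:**
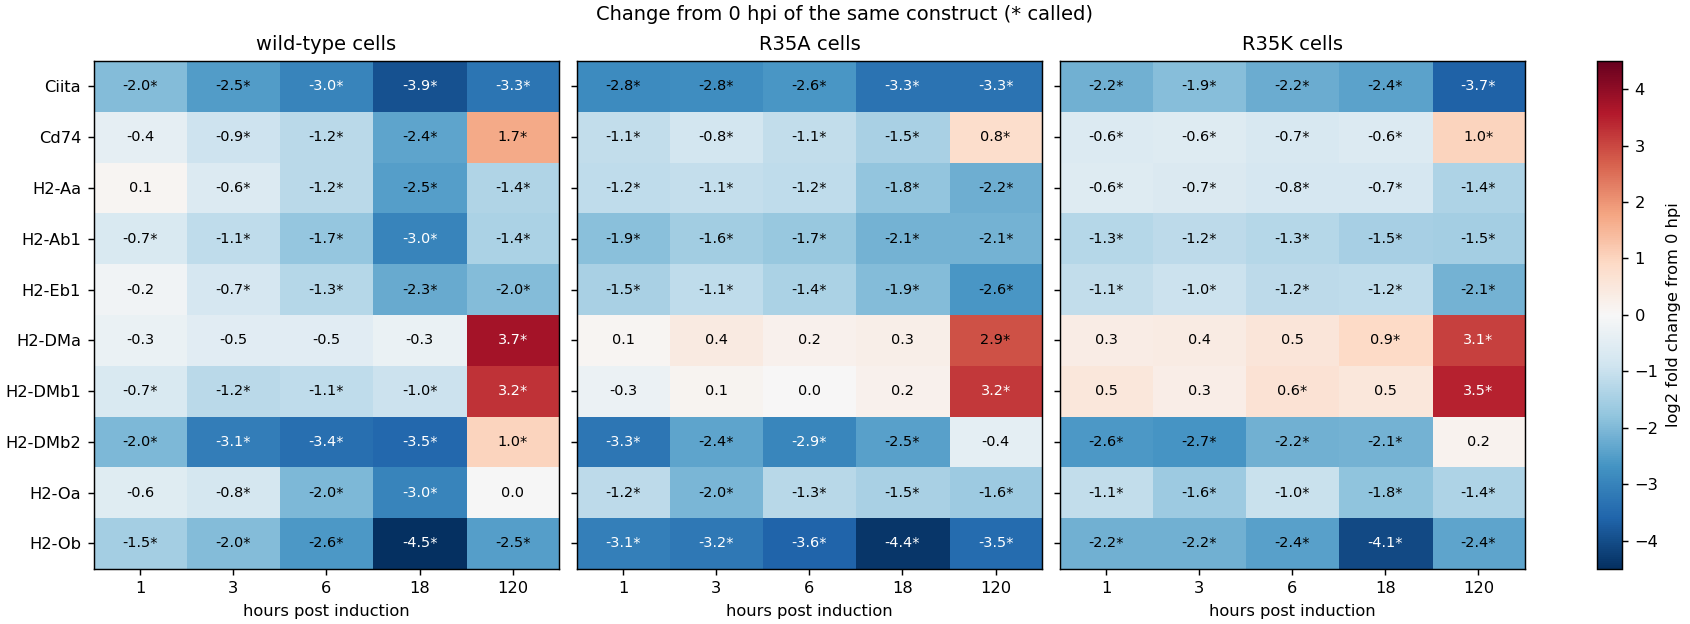
Log2 fold change from 0 hpi of the 10 members in WT, R35A and R35K cells at the 5 induced timepoints, as coloured cells with the value written in; an asterisk marks a called change. The left columns of R35A are lower than those of WT for the classical chains, and the right column holds both rises (Cd74, H2-DMa, H2-DMb1) and falls.

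R35A cells were compared with WT cells at the same timepoint, and then in their change from 0 hpi, to ask whether the exchange of arginine 35 altered the course of these genes. At 0 hpi no difference was called (0 of 10 members and 0% of all genes, 0 members also at an unadjusted p and among those to which DESeq2's Wald test gave an adjusted p). At 1 hpi 8 of 10 members were lower in R35A cells, beside 9.85% of all genes that were lower and 9.60% that were higher. The median of the members was -1.18 on the log2 scale and that of all genes 0.03. Ciita was 2.06-fold lower (-1.04 ± 0.19, adjusted p = 7.02e-06), Cd74 1.87-fold (-0.90 ± 0.05, adjusted p = 1.66e-23), H2-Aa 2.57-fold (-1.36 ± 0.06, adjusted p = 1.76e-25), H2-Ab1 2.58-fold (-1.37 ± 0.08, adjusted p = 1.08e-21) and H2-Eb1 2.48-fold (-1.31 ± 0.08, adjusted p = 1.71e-21). H2-Ob was 3.02-fold lower (-1.59 ± 0.10, adjusted p = 1.65e-19) and H2-DMb2 2.52-fold (-1.34 ± 0.31, adjusted p = 0.000203). In all of these genes both R35A libraries lay below both WT libraries. H2-DMa (0.26) and H2-DMb1 (0.04) were not called. H2-Oa was called (-0.97 ± 0.36, adjusted p = 0.0221), but not without WT 1 hpi replicate 1 (-0.84), without either R35A 1 hpi replicate (-1.12 and -0.84) or by DESeq2 (-0.95, adjusted p = 0.089). For 7 of the 8, all but H2-Oa, the difference in the change from 0 to 1 hpi was called too, where 7.89% of all genes differed in this direction. That of H2-DMb2 was lost without R35A 1 hpi replicate 2 (-0.89, adjusted p = 0.0741). The markers of other cells differed at the same timepoint: the pre-B cell sum was 1406 CPM in both WT libraries and 433 to 436 CPM in R35A cells with all 7 markers lower, and the macrophage sum was 820 to 829 CPM in WT and 3707 to 3721 CPM in R35A cells with all 10 higher. The fibroblast sum was 2002 to 2007 CPM in WT and 2167 to 2186 CPM in R35A cells, with 1 of 7 markers higher (Dcn). Their part in the lower class II levels was not tested.

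The direction turned over the following hours. At 3 hpi H2-Ob (-1.26 ± 0.12) and H2-Oa (-1.59 ± 0.45, lost without R35A 3 hpi replicate 2, -1.30) were lower in R35A cells, beside 8.37% of all genes, and H2-DMa (0.80 ± 0.09) and H2-DMb1 (0.96 ± 0.21) were higher, beside 8.41%. H2-Aa (-0.56) and H2-Ab1 (-0.58) were just below 1.5-fold and were called without a low-count filter (-0.60 and -0.61). At 6 hpi H2-Ob was lower (-1.03 ± 0.13, 7.51% of all genes) and H2-DMa (0.61) and H2-DMb1 (0.79) were higher (6.11%). Of these, H2-DMa was lost without WT 6 hpi replicate 1 (0.54), and H2-DMb1 without WT 6 hpi replicate 2 (0.57) or R35A 6 hpi replicate 1 (0.60, adjusted p = 0.0504). At 18 hpi 4 members were higher in R35A cells and 0 lower, beside 7.02% of all genes higher and 2.99% lower (6.00% and 4.02% with DESeq2's size factors, which called the same number of members). They were Cd74 (50.8 and 47.6 CPM in WT, 83.3 and 81.5 in R35A cells, 1.68-fold, adjusted p = 3.98e-17), H2-Ab1 (9.89 and 8.51 against 15 and 14.6 CPM, 1.61-fold), H2-DMb1 (1.73-fold) and H2-DMb2 (0.99 ± 0.34). H2-Ab1 was at 0.58, under the fold threshold, without WT 18 hpi replicate 2, and H2-DMb2 was not called without that library (0.51, adjusted p = 0.417) or without R35A 18 hpi replicate 2 (0.81, adjusted p = 0.205). DESeq2's Wald test did not call H2-DMb2 either (0.91). Ciita was at 0.45 ± 0.29 and was not called. At 18 hpi the pre-B cell sum was 293 to 298 CPM in WT and 197 to 198 CPM in R35A cells, the macrophage sum 790.1 to 791 and 3346 to 3377 CPM, the dendritic cell sum 26.9 to 28.4 and 30.8 to 31.3 CPM and the fibroblast sum 2385 to 2446 and 1836 to 1854 CPM, and their part was not tested.

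At 120 hpi 8 of 10 members were lower in R35A cells, beside 6.37% of all genes lower and 12.1% higher, with a median of -0.96 against 0.04 over all genes. H2-Oa was 3.80-fold lower (-1.92 ± 0.42), H2-DMb2 2.90-fold (-1.54 ± 0.15, adjusted p = 3.33e-13), Cd74 2.11-fold (-1.08 ± 0.04, adjusted p = 1.28e-28), H2-Ob 2.04-fold (-1.03 ± 0.15), H2-DMa 1.98-fold (-0.99 ± 0.05, adjusted p = 6.71e-24), H2-Aa 1.91-fold (-0.94 ± 0.10, adjusted p = 9.75e-12), H2-Ab1 1.81-fold (-0.85 ± 0.10) and H2-Eb1 1.59-fold (-0.67 ± 0.13, adjusted p = 3.48e-05). For all 8 the R35A libraries lay below the WT libraries. Ciita (-0.19 ± 0.31, adjusted p = 0.665) and H2-DMb1 (-0.42 ± 0.08, below 1.5-fold) were not called. The same 8 members differed in their change from 0 to 120 hpi (4.58% of all genes changed in this direction). H2-Oa lost that call without R35A 120 hpi replicate 2 (-0.75, adjusted p = 0.317), and H2-Eb1 (-0.64) was below 1.5-fold without any 1 of WT 0 hpi replicate 1, WT 120 hpi replicate 2, R35A 0 hpi replicate 2 and R35A 120 hpi replicate 1 (-0.52 to -0.58). At this timepoint the macrophage sum was 18401 to 18757 CPM in WT and 27025 to 29538 CPM in R35A cells, the pre-B cell sum 132 to 137 and 63.0 to 67.1 CPM, the dendritic cell sum 199 to 205 and 143 to 145 CPM and the fibroblast sum 125 to 148 and 464 to 471 CPM. Their part was not tested.

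**Figure D4:**
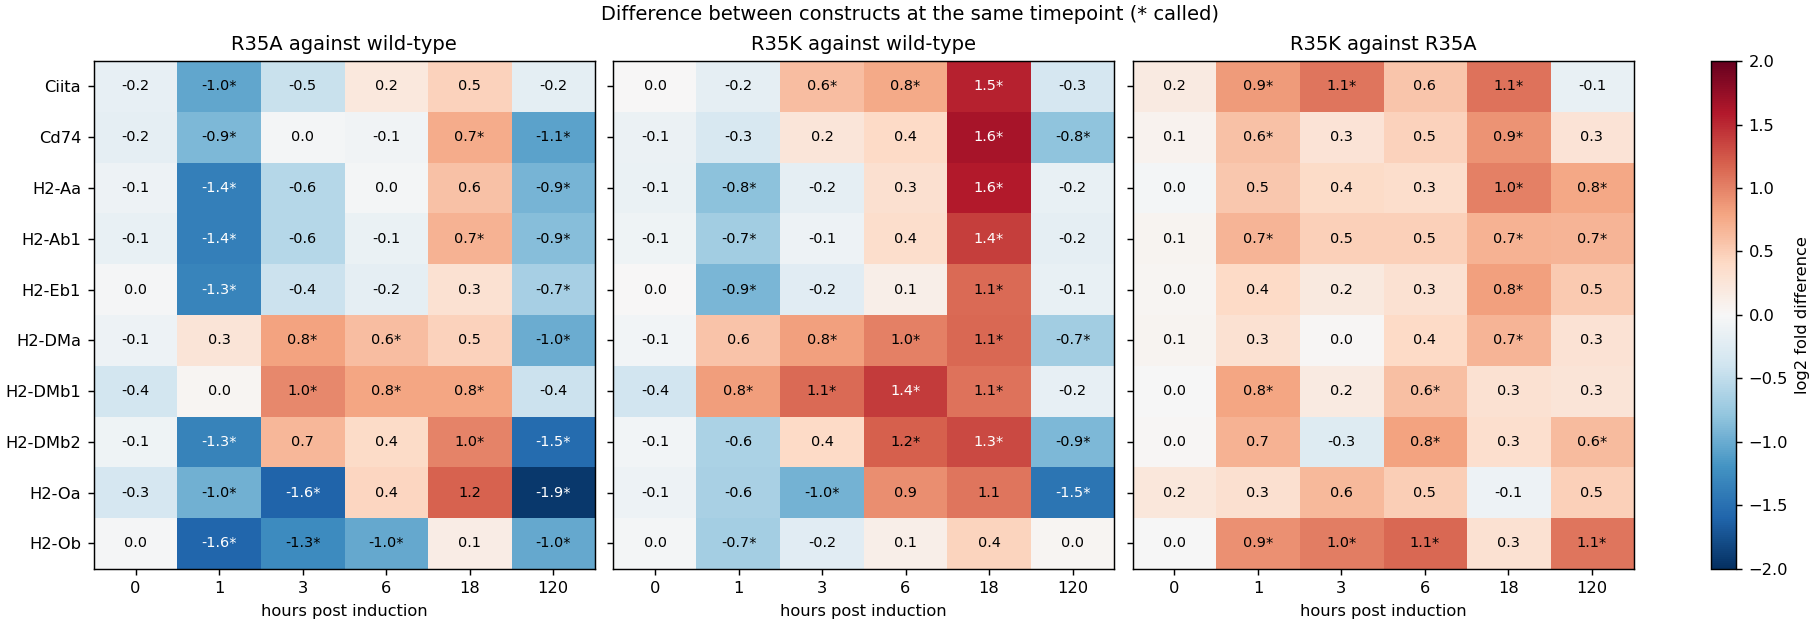
Log2 difference between constructs (R35A against WT, R35K against WT, R35K against R35A) for the 10 members at each timepoint, as coloured cells with the value written in; an asterisk marks a called difference. R35A is lower than WT for 8 of 10 members at 1 and at 120 hpi (called) and higher for some members in between, and R35K is higher than WT for 8 members at 18 hpi.

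R35K cells carry lysine, which keeps the positive charge, at the same place. At 0 hpi 0 of 10 members differed from WT (0% of all genes, 0 members also at an unadjusted p and among those to which DESeq2's Wald test gave an adjusted p). At 1 hpi 4 were lower (5.99% of all genes), H2-Eb1 (-0.92 ± 0.08), H2-Aa (-0.83 ± 0.06), H2-Ab1 (-0.69 ± 0.07) and H2-Ob (-0.68 ± 0.09), and H2-DMb1 was higher (0.83 ± 0.18, 9.24% of all genes). Ciita was not called at 1 hpi (-0.19 ± 0.17, adjusted p = 0.427). At 3 hpi Ciita (0.62), H2-DMa (0.82) and H2-DMb1 (1.13) were higher (8.24%) and H2-Oa was lower (-0.95, 4.76%). At 6 hpi Ciita (0.76), H2-DMa (1.01), H2-DMb1 (1.39) and H2-DMb2 (1.2) were higher (9.62%). Of these the calls on Ciita were lost without WT 3 hpi replicate 2 (0.53), R35K 3 hpi replicate 1 (0.53) or R35K 6 hpi replicate 1 (0.55), that on H2-DMb2 without WT 6 hpi replicate 1 (0.75), and that on H2-Oa without any 1 of the 4 libraries (-0.76 to -1.1), as well as with DESeq2's Wald test (-0.96). The markers of other cells differed from 1 to 6 hpi. The pre-B cell sum was 1406, 1333 to 1367 and 1082 to 1097 CPM in WT cells at 1, 3 and 6 hpi and 779 to 787, 782 to 786 and 738 to 741 CPM in R35K cells, with 6, 5 and 2 of 7 markers lower and 0, 0 and 1 higher. The macrophage sum was 820.0 to 829, 517 to 532 and 555 CPM in WT cells and 7943 to 8097, 6004 to 6028 and 6873 to 7005 CPM in R35K cells, with all 10 markers higher each time. The fibroblast sum was 2002 to 2007 CPM in WT and 1775 to 1828 CPM in R35K cells at 1 hpi and 2356 to 2448 against 1416 to 1459 CPM at 6 hpi, and the dendritic cell sum was at most 31.4 CPM in any of these libraries. Their part was not tested.

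At 18 hpi 8 of 10 members were higher in R35K than in WT cells, beside 10.5% of all genes higher and 4.78% lower (8.58% and 7.02% with DESeq2's size factors, under which the same number of members was called and the median of all genes was -0.07 instead of 0.04). Ciita had 1.15 and 1.33 CPM in WT and 3.78 and 3.51 CPM in R35K cells (2.92-fold, 1.55 ± 0.24, adjusted p = 3.52e-07). Cd74 had 50.8 and 47.6 against 157 and 150.2 CPM (3.13-fold, 1.65 ± 0.05, adjusted p = 2.0e-33) and H2-Aa 11.1 and 11.3 against 34.8 and 32.8 CPM (3.01-fold, 1.59 ± 0.08, adjusted p = 1.91e-23). H2-Ab1 was 2.61-fold, H2-DMa 2.21-fold, H2-Eb1 2.19-fold and H2-DMb1 2.13-fold higher. In each of these 7 genes both R35K libraries lay above both WT libraries. H2-DMb2 (2.51-fold, adjusted p = 0.000733) was lost without WT 18 hpi replicate 2 (0.85, adjusted p = 0.0772), whereas H2-Ob (0.45 ± 0.20) was called without that library only (0.71, adjusted p = 0.0264). The difference in the change from 0 to 18 hpi was called for the same 8 members, where 8.91% of all genes went this way (7.16% with DESeq2's size factors). The pre-B cell sum was 293 to 298 CPM in WT and 297 to 306 CPM in R35K cells at this timepoint, with 0 of 7 markers called, the macrophage sum 790.1 to 791 and 4936 to 5133 CPM with all 10 higher, the dendritic cell sum 26.9 to 28.4 and 37.9 to 39.3 CPM, and the fibroblast sum 2385 to 2446 and 1314 to 1329 CPM with 4 of 7 lower. The part of these cells in the higher class II levels was not tested.

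At 120 hpi 4 members were lower in R35K than in WT cells (3.97% of all genes): Cd74 (1.74-fold, -0.80 ± 0.04, adjusted p = 6.93e-23), H2-DMb2 (1.87-fold, -0.90 ± 0.14), H2-DMa (1.62-fold, -0.69 ± 0.05) and H2-Oa (-1.45 ± 0.40, lost without R35K 120 hpi replicate 2, -1.09). H2-Aa (-0.16), H2-Ab1 (-0.18), H2-Eb1 (-0.15), H2-DMb1 (-0.17) and H2-Ob (0.04) were not called. The macrophage sum was 18401 to 18757 CPM in WT and 24093 to 24772 CPM in R35K cells (1 of 10 markers higher and 1 lower), the pre-B cell sum 132 to 137 and 98.1 to 98.4 CPM, the dendritic cell sum 199 to 205 and 140.1 to 144 CPM and the fibroblast sum 125 to 148 and 345 to 406 CPM (5 of 7 higher). Their part was not tested.

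Every member that was called between R35K and R35A cells was higher in R35K cells. At 0 hpi 0 of 10 members were called (0.00579% of all genes higher and 0% lower, 0 members at an unadjusted p and by DESeq2). From 1 to 120 hpi 5, 2, 3, 6 and 4 members were higher in R35K cells, where 5.97%, 3.58%, 7.22%, 3.65% and 1.40% of all genes were higher, and 0 were lower, where 2.52%, 1.46%, 1.96%, 2.12% and 1.45% were. With DESeq2's size factors 4.82% of all genes were higher and 3.33% lower at 1 hpi and 5.87% and 2.85% at 6 hpi, and 4 and 2 members were called higher there. Ciita was 1.81-fold higher at 1 hpi (0.85 ± 0.20), 2.11-fold at 3 hpi (1.07 ± 0.19, adjusted p = 8.69e-06) and 2.13-fold at 18 hpi (1.09 ± 0.22, adjusted p = 8.85e-05). At 18 hpi the others were H2-Aa (2.02-fold), Cd74 (1.87-fold), H2-Eb1 (1.77-fold), H2-Ab1 (1.62-fold) and H2-DMa (1.60-fold). H2-Ob was higher at 1, 3, 6 and 120 hpi (0.91, 1.03, 1.15 and 1.07). At 120 hpi H2-Aa (0.78), H2-Ab1 (0.67) and H2-DMb2 (0.63) were higher too. Several early calls rested on single libraries or on the processing. At 1 hpi Cd74 (0.59) fell under 1.5-fold with DESeq2's size factors (0.53), its Wald test (0.53), no low-count filter (0.54), the 2 constructs alone (0.54) and the groups of the contrast alone (0.55). It was also lost without R35A 1 hpi replicate 1 or R35K 1 hpi replicate 1 (0.58 and 0.56), H2-Ab1 (0.68) without R35A 1 hpi replicate 2 (0.57), H2-DMb1 (0.79) without R35K 1 hpi replicate 1 (0.55) and Ciita without R35K 1 hpi replicate 2 (0.63, adjusted p = 0.055). At 6 hpi H2-DMb1 (0.60) was lost without R35A 6 hpi replicate 2 or R35K 6 hpi replicate 1 (0.40 and 0.51) and under each of the same 5 alternatives (0.54 to 0.56), and H2-DMb2 (0.81) with no low-count filter or DESeq2's Wald test (0.76 and 0.75) and without R35A 6 hpi replicate 1 or either R35K 6 hpi replicate (0.59 to 0.83), and at 120 hpi H2-Ab1 was lost without R35K 120 hpi replicate 1 (0.57). Markers of other cells differed between these cells too. The pre-B cell sum was 433 to 436 CPM in R35A and 779 to 787 CPM in R35K cells at 1 hpi with all 7 markers higher, and 197 to 198 against 297 to 306 CPM at 18 hpi with 5 of 7 higher. The macrophage sum was 3707 to 3721 against 7943 to 8097 CPM at 1 hpi (9 of 10 higher), 3346 to 3377 against 4936 to 5133 CPM at 18 hpi (5 higher) and 27025 to 29538 against 24093 to 24772 CPM at 120 hpi (1 lower). The fibroblast sum was 2167 to 2186 against 1775 to 1828 CPM at 1 hpi, with 0 of 7 called, and the dendritic cell sum 18.3 to 19.5 against 19.2 to 19.3 CPM, with 0 of 6 tested called. Their part in the differences of the members was not tested.

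Ordered over the 18 groups, 6 members had their lowest mean in WT cells at 18 hpi: Ciita, Cd74, H2-Aa, H2-Ab1, H2-Oa and H2-Ob, and so had H2-DMb2 with the TMM scale, though not with DESeq2's size factors or the authors' log2 values, which put WT 6 hpi last. H2-DMa was lowest in WT cells at 6 hpi (at 3 hpi with either other scale), H2-DMb1 in WT cells at 3 hpi and H2-Eb1 in R35A cells at 120 hpi. The highest group was WT at 120 hpi for Cd74, H2-DMa, H2-DMb1 and H2-DMb2, a 0 hpi group for Ciita, H2-Ab1, H2-Eb1, H2-Oa and H2-Ob, and WT at 1 hpi for H2-Aa. From the lowest to the highest group the mean differed 23.5-fold for H2-Ob, 22.9-fold for H2-DMb2, 21.9-fold for H2-DMb1, 19.0-fold for H2-DMa, 17.0-fold for Cd74, 15.5-fold for Ciita, 8.01-fold for H2-Oa, 7.82-fold for H2-Ab1, 6.28-fold for H2-Eb1 and 5.95-fold for H2-Aa. Of the 17 neighbouring pairs of groups in this order, 4 overlapped for Cd74, 7 for each of H2-Aa, H2-Ab1 and H2-Eb1, 8 for H2-DMa, 9 for H2-Ob, 12 for each of H2-DMb1 and H2-DMb2, 13 for Ciita and 14 for H2-Oa.

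Over the 18 group means of log2 CPM, which share libraries and a time course, Ciita correlated with H2-Ab1 (Pearson r = 0.921), H2-Eb1 (0.904), H2-Ob (0.877), H2-Aa (0.859) and H2-Oa (0.706), and little or inversely with H2-DMb2 (0.381), Cd74 (0.171), H2-DMb1 (-0.305) and H2-DMa (-0.381). H2-DMa and H2-DMb1 correlated at 0.987 and H2-Aa and H2-Eb1 at 0.963. Cd74 was closest to H2-DMb2 (0.888), H2-DMb1 (0.824) and H2-DMa (0.799). With the classical chains Cd74 correlated less, at 0.416 (H2-Ab1), 0.189 (H2-Aa) and 0.005 (H2-Eb1), so the mean profile of these 4 genes used below is not 1 that they share. Among 12861 genes whose group means spanned at least 1 log2 unit, the profiles most like that of Ciita were those of Ap1s3 (0.974), Zpbp2 (0.973), E130309D02Rik (0.973), Tamm41 (0.972) and Prps1l3 (0.971). With the mean profile of Cd74, H2-Aa, H2-Ab1 and H2-Eb1 they were Rbbp8 (0.958), Stag1 (0.950), Mcm9 (0.947), Cdc5l (0.945) and Lsm5 (0.933). By Spearman correlation 1 and 3 of these lists of 5 remained among the closest 5, and with the authors' log2 values 5 and 4.

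H2-Eb2, a further class II β gene next to H2-Eb1 that shares the box pair, started at 5.98 CPM in WT cells and ended at the detection floor of 3 counts per library. It was at least 32.7-fold lower at 18 hpi and at least 21.7-fold lower at 120 hpi in WT cells, and at least 25.1-fold and 23.3-fold lower at 120 hpi in R35A and R35K cells. Of the factors that bind class II promoters (Rfx5, Rfxap, Rfxank, Nfya, Nfyb, Nfyc and Creb1), 1 of 7 rose from 0 to 120 hpi in WT cells, Nfya (0.63), and 1 fell, Nfyb (-1.32), where 25.2% of all genes rose and 36.5% fell. In R35A cells 0 rose and 2 fell (26.5% and 35.3% of all genes), and in R35K cells 1 rose and 2 fell (26.7% and 35.5%). In R35A against WT cells at 1 hpi 1 of 7 was lower, Nfya (-0.66 ± 0.05), beside 9.85% of all genes lower and 9.60% higher. The same shares of all genes stand beside the counts of the other lists at these timepoints. Of 7 factors known to act on Ciita, 4 rose and 1 fell from 0 to 120 hpi in WT cells. Pax5, the B cell commitment factor, fell by 9.18 on the log2 scale, and PU.1 (Spi1) and Blimp-1 (Prdm1, a repressor of Ciita in plasma cells) rose by 3.61 and 2.79. In each mutant 3 rose and 2 fell. At 1 hpi 2 of the 7 were higher in R35A than in WT cells, Prdm1 (1.25) and Irf1 (0.74), and 2 lower, Pax5 (-1.68) and Irf4 (-1.06).

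The genes that process antigen for class II molecules went the other way from the classical chains. All 9 rose from 0 to 120 hpi in each construct, where 25.2% to 26.7% of all genes rose, in WT cells most of all cathepsin S (Ctss, 5.99), which cleaves the invariant chain, the ubiquitin ligase March1 (5.76), which removes class II molecules from the surface, and legumain (Lgmn, 4.57). At 1 hpi 5 of 9 were higher in R35A than in WT cells (Ctss by 1.76, Lgmn by 1.26, March1 by 1.1) and 0 lower, beside 9.60% of all genes higher and 9.85% lower. Of 10 genes of the class I pathway, 8 rose to 120 hpi in WT cells, led by H2-D1 (2.21), Tapbp (1.94) and H2-K1 (1.72), and all 10 rose in each mutant. At 1 hpi 3 were lower in R35A than in WT cells, Nlrc5 (-1.14), Psmb9 (-1.07) and Psmb8 (-0.66). Of 8 neighbours of the class II genes in the MHC region that are not class II genes, 5 rose and 1 fell in WT cells (Notch4 1.74, Btnl2 1.31 and Psmb9 0.92), 6 rose and 1 fell in R35A and 5 rose and 1 fell in R35K cells, and at 1 hpi 1 was higher and 2 were lower in R35A than in WT cells. All 5 costimulation genes rose to 120 hpi in each construct, in WT cells by 7.39 for Cd86, 5.88 for Icosl and 4.90 for Cd274, and 4 of 5 were higher in R35A than in WT cells at 1 hpi. The list of factors on Ciita shares Pax5 with the pre-B cell markers, and the class I list shares Tap1, Tap2, Psmb8 and Psmb9 with the neighbours.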

How the data were processed

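The 10 members and all gene lists were chosen with earlier results of these data known. According to the study's methods, the authors prepared stranded libraries of polyadenylated RNA, sequenced single 50-base reads, ran FastQC, aligned to mm10 by STAR (2.5.0a, per the submitters' processing notes), counted reads per gene with STAR and normalized with DESeq2 (1.14.1). The annotation release and the strand column were not given in the sources used here. The deposited count tables hold whole-number counts for 40354 genes. The deposited log2 tables hold 19067 genes, and every one of their values was recovered, within 0.01 counts, as log2 of the count divided by a size factor plus 1; they served only as another scale for the order of groups and the likeness of profiles. Of the 40354 symbols, 39171 (97.1%) were found in GENCODE vM21, which gave positions and exon lengths. 0 columns were left unused. The floor of 3 counts per library covers counting error only.

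Counts were fitted with edgeR 4.0.16 (limma 3.58.1, R 4.3.3) in 1 quasi-likelihood model of the 36 libraries and 18 groups, with filterByExpr (17277 genes) and TMM, and p-values were adjusted by Benjamini-Hochberg over all genes tested. The study's 1.5-fold threshold was used with an adjusted p of at most 0.05. Standard errors were derived from the F statistic. The common biological coefficient of variation was 3.27%. The study calls the replicates biological, but the labels do not say which cultures or animals they came from, so p-values measure the spread between these samples. All members were named, and of each list up to 3 genes with the largest change from 0 to 120 hpi in WT cells among those called, beside the genes called between R35A and WT cells at 1 hpi. For the likeness, 5 genes per profile were named. Lists covered class II promoter factors, factors on Ciita, other class II loci, class II processing, the class I pathway, MHC neighbours, costimulation and markers of pre-B cells, mature B cells, macrophages, dendritic cells, fibroblasts, T cells and granulocytes. Of the genes fixed for these lists, 1 factor on Ciita and 1 pre-B cell marker are not reported here. Genes named beyond these rules (Brd2, Dexi, BC051537, Dcn, Itgax) were chosen for their overlap or after their values were seen. The tests were checked on simulated counts. Alternatives were DESeq2's size factors, DESeq2 1.42.0 (Wald test), no low-count filter, a filter of 10 counts, a 2-fold threshold, an unadjusted p, fits of fewer libraries, a replicate block and leaving out each replicate. No pairing by replicate number was seen over all groups: over 9765 genes and 153 pairs of groups, deviations of same-numbered libraries correlated at a median of -0.01, above 0.1 in 12 pairs. A median over all pairs cannot exclude a pairing within some of the groups.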

Additional observations from a re-analysis of the deposited data

Results flagged for a closer look

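For 51 combinations of member, mutant and timepoint, the change from 0 hpi differed from that of WT cells by at least 1.5-fold with an adjusted p of at most 0.05 (edgeR's quasi-likelihood test of the difference itself, Benjamini-Hochberg). Values are log2 differences, mutant minus WT.

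R35A against WT cells differed in 7 members at 1 hpi, with Ciita at -0.88, Cd74 at -0.72, H2-Aa at -1.26, H2-Ab1 at -1.22, H2-Eb1 at -1.29, H2-DMb2 at -1.25 and H2-Ob at -1.57, beside 7.89% of all genes lower. At 3 hpi the difference was 0.90 for H2-DMa, 1.33 for H2-DMb1 and -1.24 for H2-Ob, beside 5.81% of all genes higher and 6.92% lower. At 6 hpi it was 0.72 for H2-DMa, 1.16 for H2-DMb1 and -1.0 for H2-Ob, beside 4.19% and 5.86%. At 18 hpi it was 0.92 for Cd74, 0.68 for H2-Aa, 0.83 for H2-Ab1, 1.16 for H2-DMb1 and 1.07 for H2-DMb2, beside 5.62% of all genes higher and 2.70% lower (4.89% and 3.73% with DESeq2's size factors). At 120 hpi it was -0.90 for Cd74, -0.83 for H2-Aa, -0.71 for H2-Ab1, -0.64 for H2-Eb1, -0.88 for H2-DMa, -1.45 for H2-DMb2, -1.59 for H2-Oa and -1.0 for H2-Ob, beside 4.58% of all genes lower. H2-DMa at 6 hpi was at 0.58 without WT 0 hpi replicate 2. H2-DMb2 at 18 hpi was not called without any 1 of WT 0 hpi replicate 2, WT 18 hpi replicate 2, R35A 0 hpi replicate 1 and R35A 18 hpi replicate 2 (0.59 to 1.01), nor at 1 hpi without R35A 1 hpi replicate 2 (-0.89). At 120 hpi H2-Eb1 was not called without WT 0 hpi replicate 1, WT 120 hpi replicate 2, R35A 0 hpi replicate 2 or R35A 120 hpi replicate 1 (-0.52 to -0.58), and H2-Oa not without R35A 0 hpi replicate 2 (-1.28) or R35A 120 hpi replicate 2 (-0.75). DESeq2's Wald test did not call H2-DMb2 at 18 hpi (1.00) or H2-Oa at 120 hpi (-1.60).

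R35K against WT cells differed in 6 members at 1 hpi, with H2-Aa at -0.69, H2-Ab1 at -0.61, H2-Eb1 at -0.93, H2-Ob at -0.65, H2-DMa at 0.62 and H2-DMb1 at 1.22, beside 6.84% of all genes higher and 5.08% lower. At 3 hpi Ciita was at 0.61, H2-DMa at 0.88 and H2-DMb1 at 1.52 (6.14% higher). At 6 hpi Ciita was at 0.75, H2-DMa at 1.07, H2-DMb1 at 1.78 and H2-DMb2 at 1.25 (7.66% higher). At 18 hpi Ciita was at 1.54, Cd74 at 1.76, H2-Aa at 1.72, H2-Ab1 at 1.46, H2-Eb1 at 1.12, H2-DMa at 1.2, H2-DMb1 at 1.47 and H2-DMb2 at 1.38, beside 8.91% of all genes higher and 4.42% lower (7.16% and 6.41% with DESeq2's size factors). At 120 hpi Cd74 was at -0.69, H2-DMa at -0.64, H2-DMb2 at -0.85 and H2-Oa at -1.35 (2.63% lower). Ciita at 3 hpi was not called without WT 0 hpi replicate 1, WT 3 hpi replicate 2, R35K 0 hpi replicate 1 or R35K 3 hpi replicate 1 (0.49 to 0.52), nor at 6 hpi without WT 6 hpi replicate 2 or R35K 6 hpi replicate 1 (0.64 and 0.54). H2-DMb2 was not called at 6 hpi without WT 6 hpi replicate 1 (0.81) nor at 18 hpi without WT 18 hpi replicate 2 (0.90), H2-DMa neither at 1 hpi without WT 0 hpi replicate 2 (0.48) nor at 120 hpi without WT 0 hpi replicate 1 (-0.50), and H2-Oa not without any 1 of WT 0 hpi replicate 1, either WT 120 hpi replicate, R35K 0 hpi replicate 1 and R35K 120 hpi replicate 2 (-0.99 to -1.39). At 1 hpi H2-Ab1 was lost without WT 0 hpi replicate 1 (-0.58) or WT 1 hpi replicate 2 (-0.57) and H2-Ob without WT 1 hpi replicate 2 (-0.56). DESeq2's Wald test did not call Ciita at 3 hpi (0.61) or at 6 hpi (0.72). The R35K libraries were deposited in a table of their own, so construct and table cannot be told apart.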

How the results depend on the processing

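No call on a member changed its direction under any alternative that was run. A 2-fold threshold lowered most counts of members called. For falls from 0 hpi it left 3 of 5 in WT cells at 1 hpi, 5 of 9 at 3 hpi, and 5 of 8 in R35K cells at 3 and at 6 hpi; for rises it left 0 of 1 in R35K cells at 6 and at 18 hpi. Between successive timepoints it left 1 of 2 falls from 1 to 3 hpi and 1 of 3 from 3 to 6 hpi in WT cells, 0 of 3 from 6 to 18 hpi and 0 of 1 from 18 to 120 hpi in R35A cells and 1 of 3 from 18 to 120 hpi in R35K cells. Between R35A and WT it left 0 of 2 members higher at 3 and at 6 hpi, 0 of 4 higher at 18 hpi and 4 of 8 lower at 120 hpi. Between R35K and WT it left 0 of 1 higher and 0 of 4 lower at 1 hpi, 1 of 3 higher and 0 of 1 lower at 3 hpi, and 1 of 4 lower at 120 hpi. Between R35K and R35A it left 0 of 5, 1 of 3, 2 of 6 and 1 of 4 higher at 1, 6, 18 and 120 hpi. Of the differences in change from 0 hpi it left 1 of 2 higher at 3 and at 6 hpi, 2 of 5 higher at 18 hpi and 3 of 8 lower at 120 hpi for R35A, and 1 of 2 higher and 0 of 4 lower at 1 hpi, 1 of 3 higher at 3 hpi and 1 of 4 lower at 120 hpi for R35K.

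DESeq2's Wald test called 1 instead of 3 falls in WT cells from 3 to 6 hpi (it gave H2-Oa no adjusted p there), 0 instead of 1 member lower in R35K than WT cells at 3 hpi and 1 instead of 3 higher in R35K than R35A cells at 6 hpi. An unadjusted p called 1 instead of 0 rises in R35A cells from 1 to 3 hpi and 2 instead of 1 lower in the R35A change to 3 hpi. Without a low-count filter 4 instead of 2 members were lower in R35A than WT cells at 3 hpi, as in the fit of these 2 constructs alone, 1 instead of 3 was higher in R35K than R35A cells at 6 hpi and 1 instead of 2 in the R35K change to 1 hpi. The fit of the R35K libraries alone called 0 instead of 1 rise at 6 hpi. The cause was not tested.

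With 1 replicate left out, the counts ranged from 1 to 2 for members higher between R35A and WT at 6 hpi and in that change, 1 to 2 for R35K rises at 18 hpi, 0 to 1 at 1 hpi and 0 to 2 at 6 hpi, 3 to 5 and 1 to 3 for R35K over R35A at 1 and 6 hpi, 1 to 2 higher and 2 to 4 lower in the R35K change to 1 hpi, 2 to 4 lower in that to 120 hpi, 0 to 2 for R35A falls from 18 to 120 hpi, 1 to 2 lower in the R35A change to 3 hpi, 0 to 0 lower in R35K than WT at 3 hpi and 1 to 2 for WT falls from 3 to 6 hpi. The lone replicate was assumed to vary like the other groups. Of 2600 such values 2472 kept their call, 94 lost it and 34 gained one.

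No pairing by replicate number was seen over all groups, which cannot exclude a pairing within some of them. The fit with a replicate block kept the call of all 550 values. So did a filter of 10 counts. DESeq2's size factors kept 544 and ended 5. Groups of the contrast alone gave 545 values, since in 5 the gene did not pass the filter. H2-Oa had the lowest counts, down to 2 in a library. With 2 replicates a group, a miss of the threshold does not show that levels were equal.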
